A study of Mus musculus with 7 samples.

Results

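Glutathione S-transferases (GSTs) were followed in single cells of the mouse thyroid gland and of organoids grown from it. The genes were Gstm1, Gstm2 and Gstm5 of the mu class, Gsta4 of the alpha class, Gstp1 of the pi class, Gsto1 of the omega class, Gstt1 of the theta class, and the microsomal Mgst1 and Mgst3. They are 9 of the 30879 genes in the table, and 19 other genes of the family in the table served as a comparison. The 9 genes were picked by name with their levels in organoid and gland cells already known, so for these 9 genes the comparison of organoid with gland is given as a description with no test. The study profiled wild-type C57BL/6 mice by SORT-seq, in which living cells are sorted into 384-well plates and each mRNA molecule is counted once, at its 3′ end, by a unique molecular identifier (UMI). There were 2 samples of primary thyroid tissue, 3 samples of thyroid follicular cell organoids (TFCOs) at late passage and 2 at early passage. The tissue was dissociated with collagenase and then TrypLE and was not cultured. The organoids were freed from their gel with Cell Recovery solution and then treated with TrypLE. All TFCO samples share their culture medium, which held FSK (forskolin, an activator of cAMP signalling), R-spondin 3, EGF, FGF10, A83-01, nicotinamide, B27, HEPES, Glutamax and N-acetylcysteine, itself a source of cysteine for glutathione. The labels do not say which animal or organoid line a sample came from, so the tests below measure the spread between samples, which may be technical.

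GSTs join glutathione, a small peptide that contains cysteine, to reactive electrophiles such as oxidised lipids, quinones and drugs, and the conjugates are then pumped out of the cell. The cytosolic classes differ in the substrates they prefer. Alpha class enzymes handle lipid peroxides and their aldehydes, and Gsta4 in particular acts on 4-hydroxynonenal-type aldehydes. Mgst1 and Mgst3 are membrane proteins of another superfamily and also reduce lipid peroxides. Thyroid follicular cells (TFCs) make hydrogen peroxide to attach iodine to thyroglobulin, so they live with an oxidant of their own making. Many GST genes are targets of the transcription factor NRF2 (Nfe2l2), which binds the antioxidant response element.

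The 3 mu class genes lie within 1 cluster of 7 Gstm genes that spans 149 kb on chromosome 3 (GRCm38, chr3:107895821-108044894). Gstm1 (chr3:108012255-108017973) and Gstm2 (chr3:107981702-107986453) are next to each other on the minus strand, and Gstm5 (chr3:107895821-107898686) is at the other end on the plus strand. The sequences just before their starts are shown because these 3 genes of 1 cluster had unlike patterns among the organoid samples, described below. They come from RefSeq (GRCm38.p6) and are written 5′ to 3′ in the direction of the gene, at chr3:107986454-107986670 for Gstm2, chr3:108017974-108018223 for Gstm1 and chr3:107895604-107895820 for Gstm5. In Gstm1 and Gstm2 the capitals mark the longest run of letters that both hold, CCCGCCTCT. In Gstm5 they mark a match to TGACNNNGC, the core of the antioxidant response element.
Gstm1: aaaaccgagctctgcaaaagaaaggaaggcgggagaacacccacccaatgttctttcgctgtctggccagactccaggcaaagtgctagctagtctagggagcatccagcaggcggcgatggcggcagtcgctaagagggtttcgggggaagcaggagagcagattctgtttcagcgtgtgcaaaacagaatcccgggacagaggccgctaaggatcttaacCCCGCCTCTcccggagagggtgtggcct
Gstm2: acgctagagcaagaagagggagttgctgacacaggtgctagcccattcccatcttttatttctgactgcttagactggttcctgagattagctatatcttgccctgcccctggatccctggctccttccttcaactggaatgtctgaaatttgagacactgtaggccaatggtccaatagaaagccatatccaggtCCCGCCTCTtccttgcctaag
Gstm5: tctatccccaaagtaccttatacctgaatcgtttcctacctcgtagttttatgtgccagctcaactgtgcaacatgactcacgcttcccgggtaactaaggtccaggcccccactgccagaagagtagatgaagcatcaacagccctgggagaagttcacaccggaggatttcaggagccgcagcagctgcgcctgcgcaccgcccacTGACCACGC
The run CCCGCCTCT was picked as the longest that Gstm1 and Gstm2 share, so its presence in both was fixed in advance. It was found, on either strand, in 560 of 32851 promoters (1.70%), and among the genes followed here only in Gstm1 and Gstm2. How long a run other pairs of promoters share was not tested. The 250 bases before the start were searched on both strands in the 8 genes with a promoter entry. TGACNNNGC was found in Gstm5 and in 1 of the 2 entries of Mgst1, against 10.2% of all promoters. GCGTG, the core of the xenobiotic response element, was found in Gstm1, Gstm5, Gstp1 and Mgst3, against 28.2% of all promoters, and the capitals of Gstm5 hold it too when read on the other strand. These matches are letters in a window and no binding was measured. The other 6 genes are scattered over the genome (GRCm38), with Gsta4 at chr9:78182774-78209349, Gstt1 at chr10:75783813-75798584, Mgst1 at chr6:138140316-138156755 and Mgst3 at chr1:167371966-167393841. Gstp1 (chr19:4035407-4037985) and Gsto1 (chr19:47854970-47864790) are both on chromosome 19. Each span covers the exons and introns of the gene, and the deposited values are per gene.

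At least 1000 UMIs were recovered in 2035 of 2590 cells, and TFC-like cells were taken by their markers. There were 45 and 45 TFC-like cells in the tissue samples, 293, 330 and 229 in late TFCO samples 1 to 3, and 201 and 302 in early TFCO samples 1 and 2. All 16 TFC markers had UMIs in the TFC-like cells of every sample, and thyroglobulin (Tg) took 16.1% and 11.9% of their UMIs in tissue but 0.644% to 1.56% in TFCOs. In tissue sample 2 the deepest TFC-like cell held 48.9% of the UMIs, so levels are means over cells of UMIs per 10000 in each cell, and each UMI stands for 1 molecule whatever the length of the gene. Late sample 2 and early sample 1 stood apart from the other 3 TFCO samples and alike to each other. Their TFC-like cells had median depths of 12838.5 and 13101 UMIs against 5197.5 to 9130, and 18.8% and 23.4% of them were proliferating against 3.97% to 8.30%. They made up 281 of 288 cells of 1 cluster and 122 of 124 cells of another, in a clustering that did not use the GST genes. This pair is set beside each result it touches, and what sets it apart cannot be told from the labels.

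In TFCO TFC-like cells the 9 genes fell into a group of 6 that were readily counted and a group of 3 near the limit of detection. Mgst1 had the highest mean level, 2.60 ± 0.518 UMIs per 10000 (SD, n = 5), followed by Gstm1 at 1.70 ± 1.12 and Gstm2 at 1.09 ± 1.07. Gsta4 followed at 0.780 ± 0.574, Gstm5 at 0.582 ± 0.302 and Gstt1 at 0.433 ± 0.232. Gsto1 (0.0557), Gstp1 (0.0346) and Mgst3 (0.0239) were lowest. Each gene overlapped with the next in this order over the 5 samples, with 1 exception, the gap between Gstt1 (lowest sample 0.240) and Gsto1 (highest sample 0.158). In gland TFC-like cells the order of the means was Gstm1 (1.93 ± 0.723, n = 2), Mgst1 (1.64 ± 0.421), Gstt1 (0.661 ± 0.336), Gstm5 (0.296 ± 0.0102), Gsta4 (0.253 ± 0.145), Mgst3 (0.238 ± 0.0541), Gstm2 (0.169 ± 0.0139), Gstp1 (0.168) and Gsto1 (0.00735). Gstm1 and Mgst1 overlapped there, and both lay above Gstt1 in both samples.

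**Figure D1:**
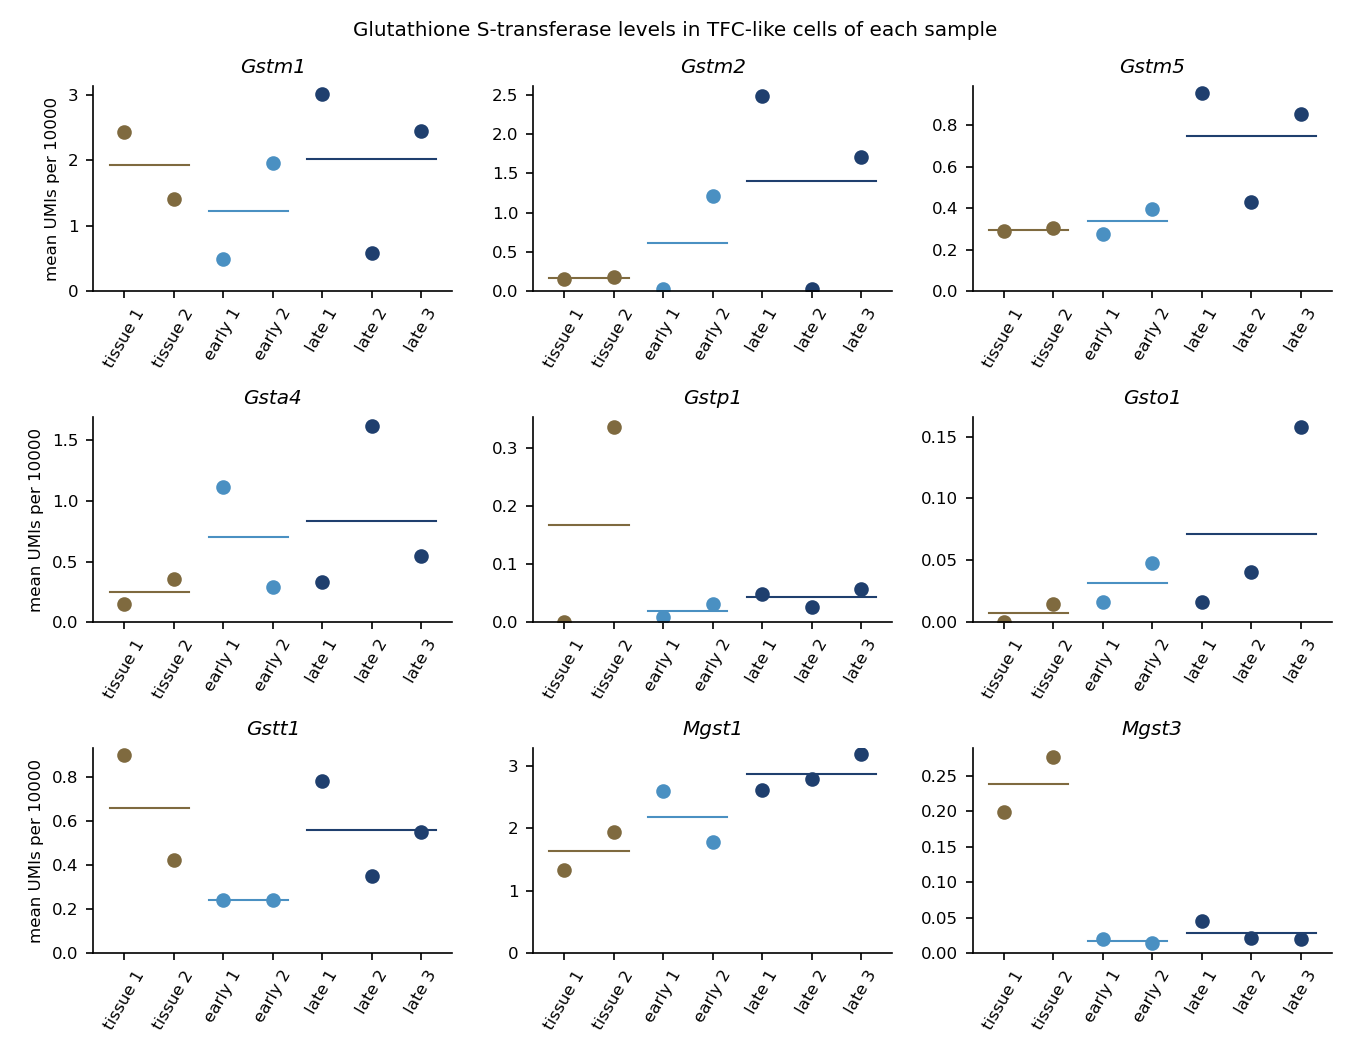
Level of each of the 9 genes (mean UMIs per 10000 over TFC-like cells, linear axes that start at 0 and differ between panels) in tissue samples 1 and 2, late TFCO samples 1 to 3 and early TFCO samples 1 and 2, with 1 point a sample and a line at the mean of each group. Gstm1 and Gstm2 are low and Gsta4 is high in late sample 2 and early sample 1, and Mgst3 is higher in both tissue samples than in any TFCO sample.

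The mu class genes differed in how much they varied among organoid samples, and Gstm2 varied most of all 9 genes. Gstm2 was at 2.49, 0.0227 and 1.71 in late samples 1 to 3, at 0.0315 and 1.21 in early samples 1 and 2, and at 0.160 and 0.179 in tissue. Late sample 2 and early sample 1 were therefore far below the other 3 TFCO samples, with 16 and 12 UMIs in 330 and 201 cells against 362 to 462 UMIs, and the highest TFCO level was 110 times the lowest. Both were also below the tissue, where the level rests on 1 and 10 UMIs, but in cells of 2000 or more UMIs the tissue was at 0 and 0.0188 and the pair was above it (0.0227 and 0.0332). Gstm1 was at 3.01, 0.587 and 2.45 in late, 0.500 and 1.96 in early and 2.44 and 1.41 in tissue, so the same pair was lowest and the other 3 TFCO samples lay around the tissue. The highest TFCO level of Gstm1 was 6.02 times the lowest. Gstm5 was at 0.955, 0.431 and 0.854 in late, 0.277 and 0.396 in early and 0.289 and 0.304 in tissue. Its range in TFCOs was 3.45-fold, and late sample 2 was above both early samples, so Gstm5 did not follow the split of Gstm1 and Gstm2. The split in Gstm1 and Gstm2 was also present when proliferating cells were left out, with Gstm2 at 0.020 and 0.029 in the other cells of late sample 2 and early sample 1 and at 1.07 to 2.43 in those of the other 3. Within samples, cells with more Gstm1 tended to have more Gstm2, with Pearson correlations over cells of 0.318, 0.331 and 0.231 in late samples 1 and 3 and early sample 2, the samples in which at least 20 cells held both. These cells share a library, and the correlations are a description.

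Gsta4, the alpha class enzyme for lipid aldehydes, had the opposite order among organoids. It was at 0.332, 1.62 and 0.544 in late, 1.12 and 0.287 in early and 0.150 and 0.355 in tissue. Late sample 2 and early sample 1 were highest and the other 3 TFCO samples overlapped with the tissue. The highest TFCO level was 5.64 times the lowest, from 715 and 378 UMIs in the high pair and 62 to 107 UMIs in the others. Of the 9 genes, Gstm1, Gstm2 and Gstp1 were lower in both samples of the pair than in all other TFCO samples, as were 9.17% of the 30744 genes with a UMI, and Gsta4 alone was higher in both, as were 8.45%. Among the 4350 genes with a mean of 0.5 or more the shares were 9.01% and 12.4%. So 4 of the 9 genes separated the pair, Gstp1 with only 3 to 17 UMIs a sample.

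Mgst1, the microsomal enzyme, was the steadiest of the readily counted genes among organoids. It was at 2.62, 2.79 and 3.20 in late, 2.61 and 1.78 in early and 1.34 and 1.94 in tissue, and the highest TFCO level was 1.80 times the lowest. The lower tissue sample was below all TFCO samples and the other was above 1 of them. Mgst3, the other microsomal gene, was at 0.200 and 0.276 in tissue and between 0.0142 and 0.0449 in the 5 TFCO samples. It was lower in every TFCO sample than in both tissue samples, the only 1 of the 9 genes to be so, against 5.33% of the 30744 genes with a UMI. The tissue mean was 9.95 times that of TFCOs, from 4 and 26 UMIs in tissue and 5 to 12 UMIs a TFCO sample. In tissue sample 2, 17 of the 26 UMIs were in 1 cell. By the share of cells at equal depth, described below, tissue sample 1 was not above the TFCO samples. The endothelial-like cells of the same tissue held Mgst3 at 0.511 and 0.328, and endothelial markers were at a summed level of 6.21 and 10.3 in tissue TFC-like cells and 1.37 to 2.62 in those of TFCOs, against 168 and 163 in endothelial-like cells. Mural-like cells held it at 0.623 and 0.356, and the summed mural markers were at 2.56 and 4.24 in tissue TFC-like cells and 0.265 to 1.30 in those of TFCOs, against 110 and 101 in mural-like cells. Immune markers were at 15.2 and 6.83 against 0.212 to 0.713. The part of such RNA in the Mgst3 level of tissue TFC-like cells was not tested.

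The theta class gene Gstt1 was at 0.782, 0.351 and 0.551 in late, 0.243 and 0.240 in early and 0.899 and 0.424 in tissue. Tissue sample 1 was highest and both early samples were lowest, while tissue and late samples overlapped. Gsto1, the omega class gene, was above both tissue samples in every TFCO sample, but so were 32.3% of the 30744 genes with a UMI. It had no UMI among 118608 in tissue sample 1, which allows a level of up to 0.253, above all TFCO levels (0.0160 to 0.158), so no difference was detectable at this depth. Gstp1 had no UMI in tissue sample 1 either and 15 UMIs in tissue sample 2 (0.337), 11 of them in 1 cell, and was at 0.00947 to 0.0580 in TFCOs. Of the stretches of 50 bases in the last 500 of Gstp1, 75.2% also occur in another gene, mostly Gstp2, so its counts may be split between the copies and are uncertain. Gstm1 and Gstm2 shared under 4% there (0.887% and 3.10%) and the other 6 genes none. Gstm5 overlaps 4933431E20Rik and Gsto1 overlaps Cfap43 on the opposite strand, and whether counting used the strand is not given in the sources used here.

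Because the samples differed in depth, the share of TFC-like cells with a UMI was also computed after each cell was thinned to 1000 UMIs. Gstm2 was then found in 16.4% (exact 95% binomial interval 12.3 to 21.1), 0.303% (0.00767 to 1.68) and 13.1% (9.02 to 18.2) of cells in late samples 1 to 3. In early samples 1 and 2 it was found in 0.498% (0.0126 to 2.74) and 8.28% (5.43 to 12.0) of cells. The pair that was low in Gstm2 was thus low at equal depth too, although its cells were the deepest before thinning, and the intervals of the pair did not overlap those of the other 3. Gsta4 was found in 3.75%, 16.4% and 1.75% of late cells and in 10.4% and 1.99% of early cells, again with the pair highest. Gstm1 was found in 21.5%, 4.55% and 13.1% of late, 3.48% and 13.9% of early and 15.6% and 15.6% of tissue cells. Mgst1 was found in 21.5%, 22.4% and 18.3% of late, 20.9% and 15.2% of early and 11.1% and 11.1% of tissue cells, and these intervals overlapped. Before thinning the shares of cells with Gstm2 were 50.2%, 3.33% and 47.6% in late and 4.98% and 33.8% in early samples. As a measure of background, immune-like cells of the tissue held Mgst1 in 3.03% and 0% of 33 and 24 cells and Gstm2 in 3.03% and 0% (0 of 24 cells allows up to 12.5%). They held Gstm1 in 12.1% and 12.5% and Gsta4 in 9.09% and 4.17% of cells, before thinning and at median depths of 6307 and 5849.5 UMIs against 2257 and 2229 in tissue TFC-like cells. Tissue TFC-like cells held Gsta4 in 4.44% and 11.1% before thinning, so in tissue its shares are not above this background in both samples. The TFCO samples hold no other class of cells in which background could be read. Intervals and limits cover counting error only.

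**Figure D2:**
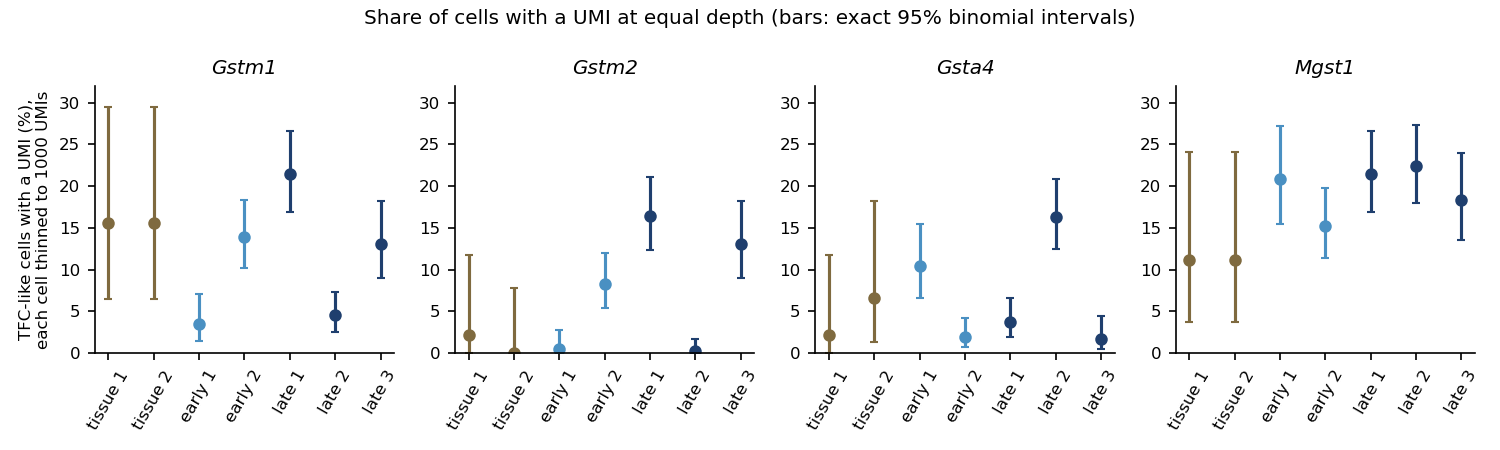
Share of TFC-like cells with at least 1 UMI of Gstm1, Gstm2, Gsta4 or Mgst1 (percent, after thinning each cell to 1000 UMIs) in each of the 7 samples, with exact 95% binomial intervals as bars. Gstm2 is near 0 in late sample 2 (0.303%) and early sample 1 (0.498%) and between 8.28% and 16.4% in the other TFCO samples, and Gsta4 has the opposite order.

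Added over the 9 genes, the level of TFC-like cells was 5.48 and 5.24 in tissue, 10.3, 5.89 and 9.55 in late and 4.82 and 5.96 in early samples. Late samples 1 and 3 were highest and late sample 2 lay within the early range, so late (8.58 ± 2.36, n = 3) and early samples (5.39 ± 0.809, n = 2) overlapped. The make-up differed more than the sum. Mgst1 gave 25.4%, 47.4% and 33.5% of the sum in late and 54.1% and 29.8% in early samples. Gstm1 and Gstm2 together were the larger part in late sample 1, at 29.2% and 24.2%, but gave 10.0% and 0.385% in late sample 2. Gsta4 gave 27.5% and 23.2% in late sample 2 and early sample 1 and 3.23% to 5.70% in the other TFCO samples. In tissue, Gstm1 gave 44.5% and 27.0%.

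**Figure D3:**
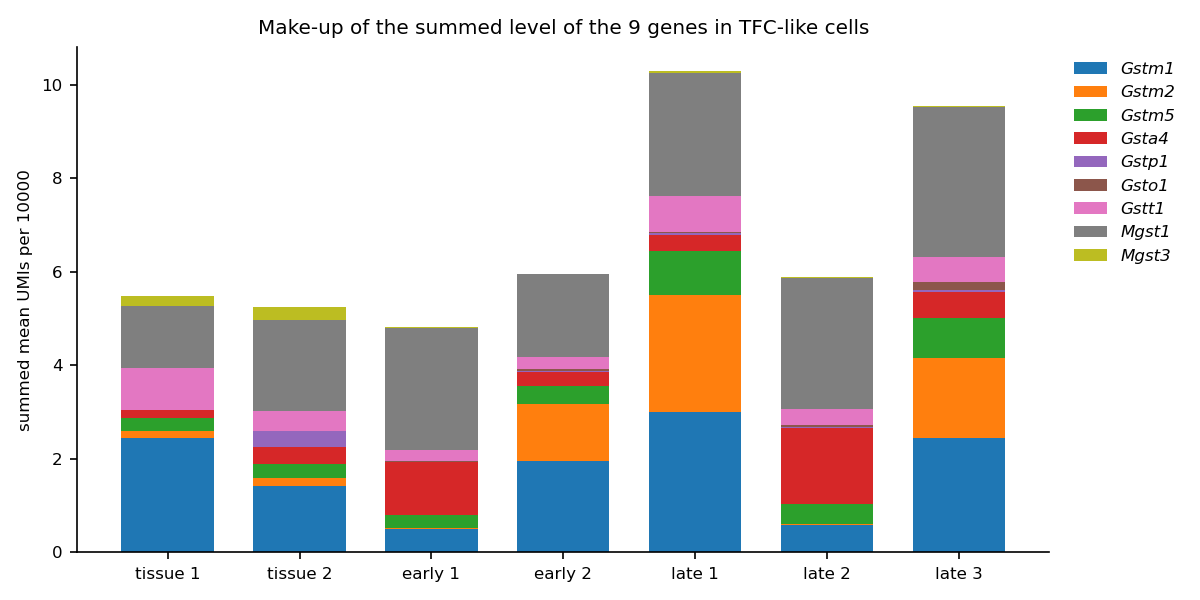
Summed level of the 9 genes (mean UMIs per 10000 over TFC-like cells) as 1 stacked bar for each of the 7 samples, with a colour for each gene. The bars reach 10.3 and 9.55 in late samples 1 and 3 and 4.82 to 5.96 in the other 5 samples, and Gstm1 and Gstm2 give way to Mgst1 and Gsta4 in late sample 2 and early sample 1.

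Among the other cell classes of the gland, stromal-like and mural-like cells held mu class genes as well. Gstm1 was at 3.53 and 6.20 in stromal-like cells of tissue samples 1 and 2 (15 and 6 cells), 3.50 and 1.89 in mural-like, 1.44 and 1.58 in endothelial-like and 0.672 and 0.118 in immune-like cells. By the mean over cells, the immune-like cells were the only class below TFC-like cells (2.44 and 1.41) in both samples. With UMIs summed over cells, Gstm1 was at 3.12 and 2.51 in TFC-like cells. Endothelial-like (1.39 and 1.72) and mural-like cells (3.08 and 1.88) were then below them in both samples too. In tissue sample 2, 76 of the 138 Gstm1 UMIs of TFC-like cells were in 1 cell. Gstm2 was at 1.29 and 2.58 in stromal-like and 2.34 and 0.220 in mural-like cells, above the 0.160 and 0.179 of TFC-like cells, although the 0.220 comes from 3 UMIs in 1 of 29 cells. Gstm5 was at 0.559 and 0.548 in mural-like cells, above TFC-like cells (0.289 and 0.304), and had no UMI in stromal-like and immune-like cells. In stromal-like cells this allows levels of up to 0.331 and 1.51, above those of TFC-like cells, and in immune-like cells up to 0.134 and 0.170. Mgst1 was higher in TFC-like cells (1.34 and 1.94) than in endothelial-like (0.281 and 0.435), mural-like (0.229 and 0.372) and immune-like cells (0.062 and 0), and in stromal-like cells it differed between the samples (0.559 and 4.06). Gstt1 was lower in endothelial-like (0.098 and 0) and immune-like cells (0.068 and 0) than in TFC-like cells, and was at 1.36 and 0.854 in stromal-like and 0.444 and 0.547 in mural-like cells. By the mean over cells, Mgst3 was highest in mural-like cells in both samples (from 8 and 5 UMIs), with endothelial-like cells next. With UMIs summed over cells, TFC-like cells of tissue sample 2 were above both, at 0.473 against 0.448 in mural-like and 0.343 in endothelial-like cells. Gstp1 was at 0.843 and 0.583 in stromal-like and mural-like cells of tissue sample 2, and at 0.191 and 0 in those of sample 1. Gsto1 was found in immune-like cells at 0.109 and 0.123. As a check on free RNA, Tg was at 15.5 to 29.6 in the other tissue classes against 1611 and 1194 in TFC-like cells. With 2 tissue samples and clusters drawn from the same cells, these orders are descriptions.

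**Figure D4:**
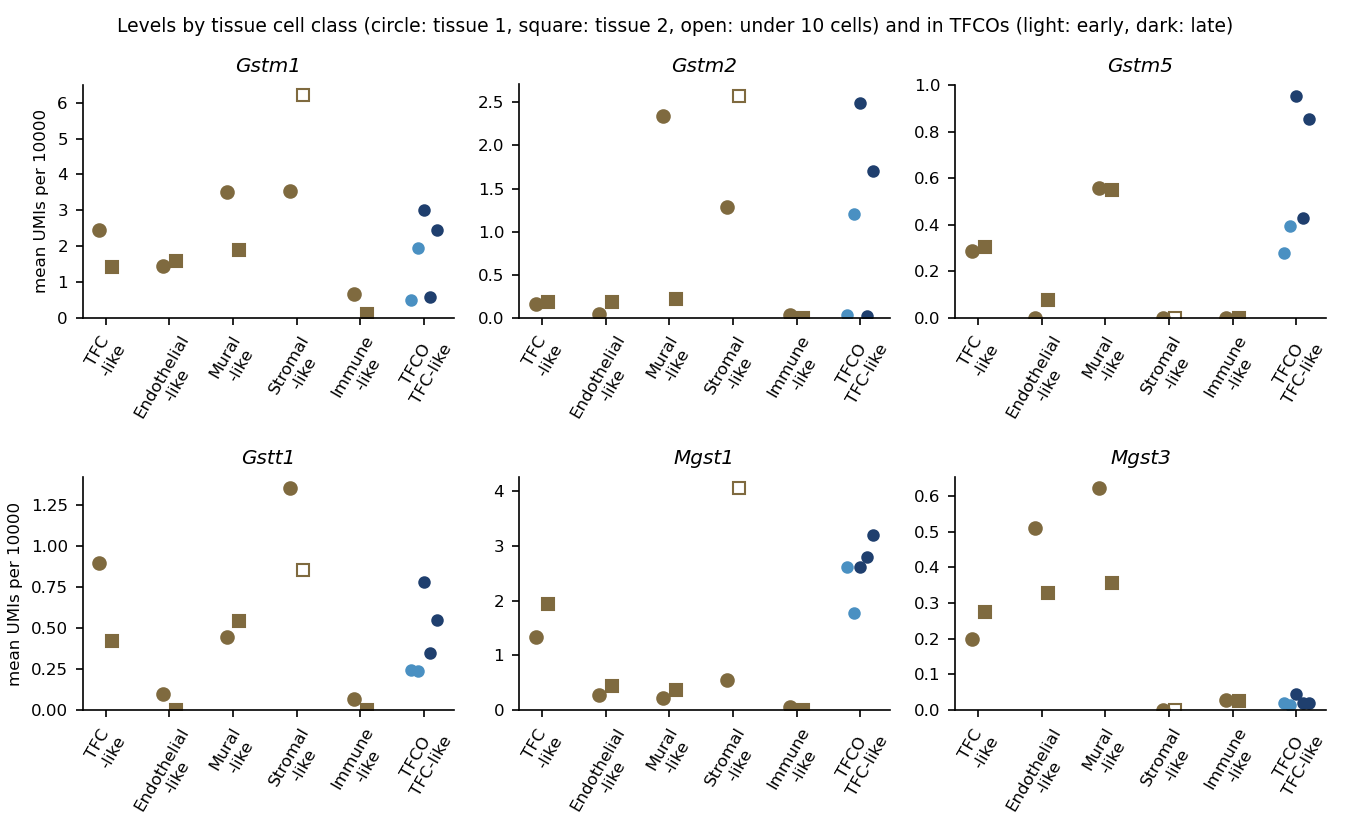
Level of Gstm1, Gstm2, Gstm5, Gstt1, Mgst1 and Mgst3 (mean UMIs per 10000, linear axes that differ between panels) in the named classes of tissue samples 1 (circles) and 2 (squares), with classes of fewer than 10 cells as open symbols, and in the TFC-like cells of the TFCO samples (light for early, dark for late). Mgst1 is higher in TFC-like cells than in endothelial-like, mural-like and immune-like cells of both tissue samples, and Gstm2 is higher in stromal-like cells than in TFC-like cells of both.

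Organoid and gland follicular cells were compared on log2(mean UMIs per 10000 + 1), which understates changes of low genes. With limma 3.58.1 over all 7 samples, 1133 of 4350 genes tested (26.0%) passed an adjusted p of 0.05, 20.2% as higher and 5.86% as lower in TFCOs, and the median difference was 0.23. At an unadjusted p under 0.05 there were 40.7%. These shares are background only, since the 9 genes were chosen with this comparison known. Of the 9 genes, 4 were high enough to enter the fit. Their differences (TFCO minus tissue) were 0.62 ± 0.60 (SE) for Gstm2, 0.45 ± 0.36 for Gsta4, 0.41 ± 0.24 for Mgst1 and -0.25 ± 0.51 for Gstm1. With genes of a mean of 0.1 or more in the fit, where 4.85% of 12113 genes passed, Gstm5 was at 0.23 ± 0.21 and Gstt1 at -0.24 ± 0.20. Without late sample 2 and early sample 1 the difference of Gstm2 was 1.16 and that of Gstm1 turned to 0.20, but these are the samples with the least of both genes. The difference of Gstm1 was 0.0089 without tissue sample 1, and that of Gstt1 was -0.45 without tissue sample 2. In cells of 2000 or more UMIs, where Mgst1 was at 2.11 and 2.71 in tissue, its difference was 0.05.

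Late and early organoids were compared in the same fit to ask how the genes stand with passage. Every late sample was above both early samples for Gstm5, Gstt1, Mgst1 and Mgst3, 4 of the 9 genes against 8.78% of the 30744 genes with a UMI and 17.8% of those tested. The levels lay close at the edge, with 0.431 in late against 0.396 in early for Gstm5 and 2.62 against 2.61 for Mgst1. Mgst3 rests on 5 to 12 UMIs a sample. With UMIs summed over cells, only Gstm5 and Gstt1 of these 4 genes kept the order. Mgst1 was then at 2.36 in late sample 1 against 2.60 in early sample 1. Mgst3 was at 0.0218 in late sample 3 against 0.0299 in early sample 1. The count of 4 therefore depends on how the levels are averaged. None of the 9 genes was lower in every late sample, against 23.1% of the genes with a UMI and 24.4% of those tested. Of the 4 genes tested, 0 passed by limma with Benjamini-Hochberg adjustment, with 0 at an unadjusted p under 0.05, against 1 of 4350 genes (0.0230%, the pseudogene Rpsa-ps10, named after its values were seen) and 20.3% at an unadjusted p under 0.05. The differences (late minus early) were 0.29 ± 0.17 for Mgst1 (adjusted p = 0.343), 0.41 ± 0.35 for Gstm1 (0.518), 0.50 ± 0.42 for Gstm2 (0.503) and 0.09 ± 0.25 for Gsta4 (0.866). With genes of 0.1 or more tested, Gstm5 differed by 0.37 ± 0.12 (adjusted p = 0.166) and Gstt1 by 0.32 ± 0.11 (adjusted p = 0.182), again short of the threshold, as were all but 0.00826% of 12113 genes. Late sample 2 and early sample 1 bear on this comparison. Without both, which leaves a single early sample, Gstm5 differed by 0.45. Without early sample 1 alone the differences of Gstm1 and Gstm2 were -0.081 and -0.053.

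Proliferating organoid cells were compared with the other TFC-like cells of the same sample. Mgst1 was lower in proliferating cells of all 5 TFCO samples, the 1 gene of the 9 with that pattern, against 8.31% of 12861 genes. In late samples 1 to 3 its level was 2.71, 2.96 and 3.33 in the other cells and 0.727, 2.06 and 1.75 in the proliferating cells. In early samples 1 and 2 it was 2.76 and 1.81 in the other cells and 2.12 and 0.989 in the proliferating cells. The test took the 3 samples with at least 15 proliferating cells (late 2 with 62, late 3 with 19 and early 1 with 47), with the sample as a term. There Mgst1 differed by -0.43 ± 0.12 (proliferating minus other, adjusted p = 0.0871), and 0 of the 7 genes tested passed by limma, with Mgst1 and Gstt1 at an unadjusted p under 0.05, against 353 of 12861 genes (2.74%, with 2.13% higher and 0.614% lower) and 14.0% at an unadjusted p under 0.05. With the other samples added (14 and 12 proliferating cells) Mgst1 differed by -0.58 ± 0.13 and passed by limma (adjusted p = 0.0293). In that fit 1 of the 8 GST genes tested passed, against 389 of 14305 genes, so the call depends on how many samples were used.

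The mu class genes did not follow Mgst1. Gstm2 was higher in proliferating cells of all 5 samples, as were 7.60% of the 12861 genes. It was at 2.43, 0.0205 and 1.66 in the other cells of late samples 1 to 3 against 3.62, 0.0322 and 2.22 in proliferating cells, and at 0.0294 and 1.07 against 0.0384 and 4.61 in early samples 1 and 2. The difference in the 3 samples tested was 0.10 ± 0.093 (adjusted p = 0.680), and 2 of these 3 were the samples nearly without Gstm2. Gstm1 was higher in proliferating cells of 4 of the 5 samples and lower in early sample 1 (0.607 in other and 0.149 in proliferating cells), with a difference of 0.07 ± 0.16. Gsta4 (-0.06 ± 0.10), Gstm5 (0.05 ± 0.10), Gsto1 (0.06 ± 0.056) and Gstt1 (-0.21 ± 0.088, adjusted p = 0.317) did not pass either. Whether the effect of proliferation differs between late and early passage was tested in all 5 samples, and 0 of the 8 genes tested passed by limma, with 0 at an unadjusted p under 0.05, as did 0 of 14305 genes (0%, with 754 or 5.27% at an unadjusted p under 0.05). For Mgst1 the difference of differences was -0.33 ± 0.26 (adjusted p = 0.915).

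**Figure D5:**
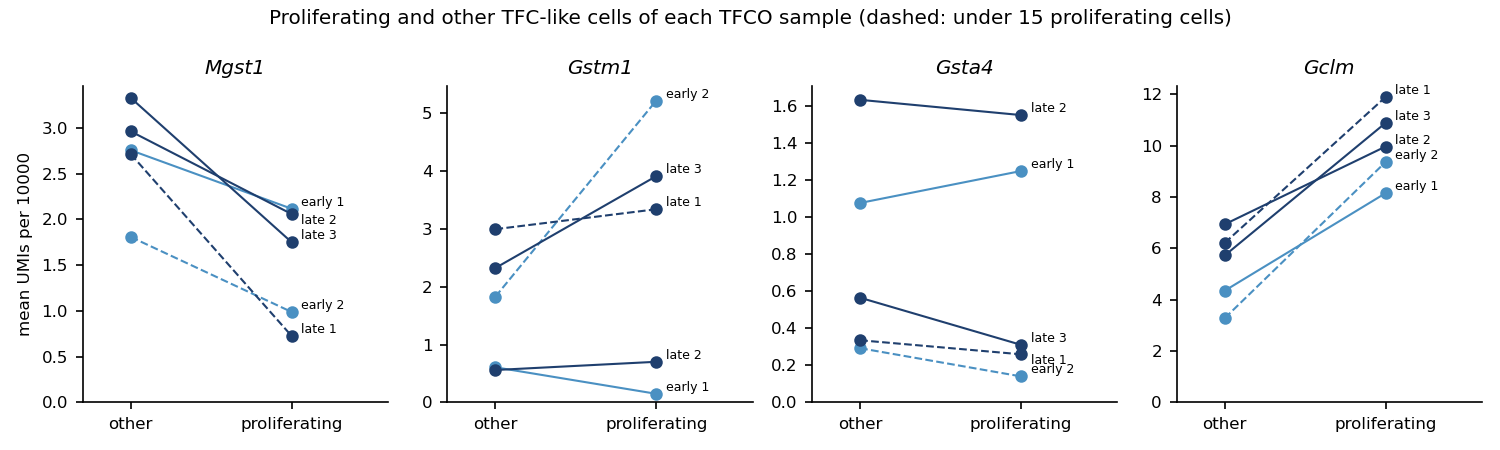
Level of Mgst1, Gstm1, Gsta4 and the glutathione synthesis gene Gclm (mean UMIs per 10000, linear axes that start at 0) in the other and the proliferating TFC-like cells of each TFCO sample, with 1 line a sample and dashed lines where fewer than 15 cells were proliferating. Mgst1 is lower and Gclm is higher in proliferating cells along all 5 lines, and late sample 2 and early sample 1 stay lowest for Gstm1 and highest for Gsta4 in both kinds of cells.

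The rest of the family was counted from a list of 22 genes, of which 19 are in the table and 2 were high enough to be tested. In the Gstm cluster, Gstm7 was lower in late sample 2 and early sample 1 (0.286 and 0.174) than in the other TFCO samples (0.311 to 0.865), as Gstm1 and Gstm2 were, and was at 0.0710 and 0.0178 in tissue. Over cells, Gstm1 and Gstm7 had Pearson correlations of 0.281 to 0.342 in the 4 TFCO samples in which at least 20 cells held both. In early sample 1, where 18 cells held both, the correlation was lower, at 0.135. Gstm4, which lies next to Gstm1, was at 0.0602 and 0.117 in the pair and 0.0542 to 0.10 in the others, so it did not separate them. Gstm6 and Gstm3 were near 0 in most samples. Gsta3, an alpha class gene, was at 0.734, 0.424 and 0.926 in late, 0.381 and 0.638 in early and 0.899 and 0.613 in tissue, so here too the pair was lowest, the opposite of Gsta4. Gstt2, of the theta class like Gstt1, was the highest GST gene of gland TFC-like cells, at 4.24 and 7.17 in tissue against 1.51, 3.62 and 1.67 in late and 2.55 and 1.51 in early samples. Its difference from tissue was -1.09 ± 0.38 (adjusted p = 0.0524), which does not pass. Its level also followed the barcode of the well, with a correlation of 0.137 between cells of different samples with the same barcode, against -0.0157 to 0.0566 for the 9 genes. Of these, Gstm1 (0.0566) was itself above 0.05, the limit used here for a gene that follows the barcode. Ptges, a prostaglandin synthase of the same superfamily as Mgst1, was at 0.673 and 0.591 in tissue and 0.0268 to 0.0596 in TFCOs. It was too low for the main test and passed once genes of 0.1 or more were tested (-0.65, adjusted p = 0.00287).

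The genes around GSTs were counted from lists of glutathione synthesis and turnover, conjugate export, the NRF2 pathway and phase 1 enzymes. Over these lists and the rest of the family, 28 of 94 genes were tested for TFCO against tissue, and 10 were higher and 1 lower in TFCOs (39.3% against 26.0% of all genes tested). The lists were chosen with earlier results of these data known, so these shares are a description and no test of the lists. Of the NRF2 list, 8 of 16 genes tested rose and 1 fell, with a median difference of 0.58 against 0.23 over all genes. Gclm, the modifier subunit of the enzyme that sets the rate of glutathione synthesis, was the 1 gene of 4 called in its list. It was at 2.40 and 1.99 in tissue and 6.48, 7.50, 6.15, 5.24 and 3.52 in TFCO samples late 1 to 3 and early 1 and 2 (1.00 ± 0.30, adjusted p = 0.0294). All TFCO samples were above both tissue samples. Prdx1, a peroxiredoxin, was at 1.45 and 2.04 in tissue and 4.82 to 5.93 in TFCOs (1.21 ± 0.27, adjusted p = 0.00955). Aldh1a1, which oxidises retinal and lipid aldehydes, was at 0.0406 and 0.369 in tissue and 0.992 to 2.87 in TFCOs (1.13 ± 0.34, adjusted p = 0.0310). Akr1a1 (0.94 ± 0.26), Taldo1 (0.75 ± 0.25) and the epoxide hydrolase Ephx1 (0.75 ± 0.21) also rose, as did Bach1, Txnrd1 and Me1. Ftl1, a ferritin chain, fell from 1.81 and 2.07 to at most 0.272 (-1.46 ± 0.15, adjusted p = 0.000182), but 80.9% of the 50-base stretches at its 3′ end recur in other genes, mostly the pseudogene Ftl1-ps1, so its counts are uncertain. Nfe2l2 itself was at 1.23 and 1.42 in tissue and 1.95 to 2.82 in TFCOs and did not pass (0.59 ± 0.22, adjusted p = 0.0656). The 2 conjugate export genes tested and the 2 further GST genes did not pass.

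The calls over all genes depended on the processing, at 1133 of 4350 in the main fit. They were 726 of 4350 after each sample was centred on its median gene and 128 of 4487 with UMIs summed over cells. These list calls depended on it too. The number called ranged from 1 (Ftl1, when UMIs were summed over cells, which gives 2 cells 76.4% of the UMIs of TFC-like cells in tissue sample 2) to 16 (without tissue sample 1), and it was 6 without early sample 1 and 4 after each sample was centred on its median gene. Gclm missed the threshold with UMIs summed (0.50), without early sample 1 (0.89) and after centring (0.81), while Prdx1 passed in the last 2 of these. Between late and early organoids 0 of the 28 genes passed by limma, with 4 at an unadjusted p under 0.05, against 0.0230% and 20.3% of all genes tested. In proliferating cells Gclm was the 1 gene called of 57 tested (1.75%, below the 2.74% of all genes), and it was higher in all 5 samples. It was at 6.21, 6.93 and 5.72 in the other cells of late samples 1 to 3 and 11.9, 9.96 and 10.9 in proliferating cells, and at 4.35 and 3.28 against 8.15 and 9.36 in early samples (0.69 ± 0.12, adjusted p = 0.0109).

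Genes with a pattern like a GST gene were ranked by Pearson correlation of log2 levels over 14 points, the tissue classes with 10 or more cells and the TFCO samples, among 4857 genes. These points share libraries and depth, and the correlations are descriptions. Gstm2 was most like Spon1 (0.922), which encodes the extracellular matrix protein spondin 1, then Igfbp5 (0.814) and Gstm1 (0.783). Spon1 was at 3.36, 0.453 and 2.83 in late and 0.664 and 2.45 in early samples, with the same pair low. Gstm1 was most like Spon1 (0.795), Gstm2 (0.783) and Fkbp9 (0.748). Gsta4 was most like the secretory genes Dcpp2 (0.972) and Dcpp3 (0.948) and the surfactant protein gene Sftpb (0.927). Dcpp2 was at 0.245, 4.27 and 0.556 in late and 2.35 and 0.199 in early samples, with the same pair high as for Gsta4, and these genes lead the cluster that late sample 2 and early sample 1 share. Mgst1 was most like Skp1a (0.983), Nlrp4e (0.978) and Tmem9 (0.969). Gstm5 was most like Afap1l2 (0.885), Dag1 (0.877) and Uqcrq (0.873). Gstt1 was most like Nfix (0.895), Sdc2 (0.840) and Dennd4c (0.817). Mgst3 was most like Gna11 (0.909), Mxd4 (0.908) and Cds2 (0.899). Gstp1 (Plxdc1 0.857, Slc38a6 0.839 and Plekhm2 0.813) and Gsto1 (Ypel3 0.770, Plin2 0.734 and Capzb 0.703) rest on few UMIs. Slc38a6 follows the barcode of the well (correlation 0.464). Spon1 (0.0557), Igfbp5 (0.0561), Gstm1 (0.0566), Nlrp4e (0.0614), Plxdc1 (0.0645) and Plekhm2 (0.0584) were also above the barcode limit of 0.05, though by less.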

How the data were processed

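Single-cell expression was measured in 7 samples. Per the submitters' processing notes, reads were trimmed with Trim Galore 0.4.3, mapped with STAR 2.5.3a to GRCm38 (mm10) and processed with Seurat. The counting settings, annotation and cell filter are not given in the sources used here. The authors deposited natural log values, ln(1 + UMIs per 10000 in the cell), for 30879 genes and 2590 cells. UMIs were recovered by undoing the log and dividing by the smallest value of each cell, and 100% of the non-zero values were whole within 0.01. No column of a sample was left unused.

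Cells of at least 1000 UMIs were kept. Tissue and TFCO cells were clustered separately (scanpy 1.11.5, 2000 variable genes, 30 components, 15 neighbours, Leiden at resolution 1), without GST genes and without 4194 genes whose level followed the well barcode (correlation above 0.05). The TFC-like class is therefore held by different clusters in tissue and TFCOs. Clusters were named from marker lists, where the best list led the next by 1.5 times. The naming rules were adjusted after the clusters had been seen. In tissue samples 1 and 2, 83 and 75 cells stayed unnamed, as did 102 TFCO cells, and 14 tissue cells with at least 2 markers of another type were set aside. No doublet caller was run. All 384 listed barcodes serve every plate, and 383 occurred in more than 1 sample. Clusters in which the median proliferation marker was found in at least 40% of cells were called proliferating.

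Levels were averaged over the cells of a class in a sample. Tissue, late and early samples entered 1 fit by limma 3.58.1 (R 4.3.3) on log2(mean + 1), with trended empirical Bayes and 1 estimated weight each for tissue (0.456) and TFCO samples (1.37), over genes with a mean of at least 0.5 across the groups. Proliferating and other cells were compared with the sample as a term and equal weights, over genes at 0.1 or more in at least 2 means. P-values were adjusted by Benjamini-Hochberg at 0.05. Depth was 1406925 and 1589528 UMIs for tissue, 1985836, 4703472 and 2388697 UMIs for late TFCOs, and 3213871 and 2409001 UMIs for early TFCOs. The alternatives tried were other filters, pseudocounts, weights, centring, cell classes and samples left out.

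The 9 genes and all lists were chosen with earlier results of these data known. All 9 genes are named in every comparison. List genes are named where they passed on the same side in every sample, up to 6 a list by size, together with any at 0 UMIs (there were none), and further list genes were named after their values were seen. For each GST gene the 3 most alike genes are named. Of the list genes that met this rule, 1 is not reported here. Of the lists, 6 genes were not analysed here (Gsta5, Gsta13, Gstt3, Dpep1, Nr1i3 and Ugt1a6a). The series text gives every kind of sample equally many biological replicates, unlike the 3 late samples labelled, and all 7 were used.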

Additional observations from a re-analysis of the deposited data

Results flagged for a closer look

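In TFCO TFC-like cells, 2 of the 9 genes had a sample far from the other 4. Gsto1 was at 0.158 UMIs per 10000 in late sample 3, with a gap to the next sample of 0.777 of the whole range, from 15 UMIs in 8 cells. Mgst3 was at 0.0449 in late sample 1, with a gap of 0.783 of the range, from 10 UMIs of which 5 were in 1 cell. The limit for 5 samples is 0.71, and chance passes it in about 1 in 20 groups.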

How the results depend on the processing

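No paired analysis was possible because the replicate numbers only follow the order of the samples and tie no tissue sample to an organoid sample. For TFCO against tissue, the GST genes were chosen with this comparison known, so no count of calls is given for them. The difference of Gstm1 turned from -0.25 to 0.20 without late sample 2 and early sample 1, and to 0.0089 without tissue sample 1. That of Gstm2 went from 0.62 to 1.16 without late sample 2 and early sample 1. That of Gstt1 was -0.45 without tissue sample 2. The count of list genes called was 11, and 3 with genes of 0.1 or more tested, 6 with genes of 2 or more, 1 with UMIs summed over cells, 4 after centring and 5 in cells of 2000 or more UMIs. Leaving out 1 sample at a time gave 6 to 16, the 6 without early sample 1. For late against early, 0 GST genes and 0 list genes were called in the main fit. Leaving out late sample 2 and early sample 1, chosen after seeing the data, left a single early sample. Gstm5 then differed by 0.45, against 0.37 with genes of 0.1 or more tested. Fth1, Gclm and Slc7a11 then differed by 0.75, 0.69 and -0.52, against 0.60, 0.53 and -0.33 in the main fit. The samples left out are themselves the lowest in Gstm1 and Gstm2. For proliferating cells the count of GST genes was 0, and 1 (Mgst1 each time) with genes of 0.5 or more tested, with proliferating cells taken by a per-cell score and with samples of 10 or more proliferating cells, a limit set after seeing the data. Over all genes these settings called 392 of 5511, 480 of 13383 and 389 of 14305, in this order. Signs turned with 1 sample left out. Between passages the range was -0.081 to 0.90 for Gstm1 and -0.053 to 1.05 for Gstm2 (both lowest without early sample 1) and -0.27 to 0.28 for Gsta4 (lowest without early sample 2). In proliferating cells it was -0.18 to 0.34 for Gstm1, -0.076 to 0.11 for Gstm5 and -0.15 to 0.035 for Gsta4, each turned without late sample 3, and Gstm1 was at -0.17 with a pseudocount of 0.1. None of these differences passed. Of the other values of single genes and all-gene counts, 341 stayed the same, 22 moved in size and 7 turned sign. The threshold was lost by 30 and gained by 3. For counts, and for the GST genes in TFCO against tissue, staying the same was judged by size. For the rest it was judged by direction and side of the threshold.

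Over all genes, 1133 were called for TFCO against tissue, and 587 with genes of 0.1 or more tested, 334 with 2 or more, 128 with summed UMIs, 726 after centring, 624 in cells of 2000 or more UMIs, 1878 with equal weights, and 1770 and 1890 without tissue samples 1 and 2, where a single tissue sample is left and its spread is taken from the other groups. Centring moved the median difference from 0.23 to 0.03. Between passages 1 gene was called, and 443 with a term for late sample 2 and early sample 1, 398 without early sample 1, 2 without late sample 2 and 639 without both. For proliferating cells 353 genes were called, and 130 with both left out. The cause of these changes was not tested. Depth limits the tissue most, where 3 UMIs among 118608 make a level of 0.253, above every TFCO level of Gstp1, Gsto1 and Mgst3.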
